A study of Mus musculus with 2 samples.

Results

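Macrophages of embryonic mouse skin are described here from droplet single-cell RNA counts at E13.5. They were chosen by their complement transcripts. A barcode was taken when C1qa, C1qb and C1qc together had at least 10 UMIs (unique molecular identifiers, each standing for 1 captured transcript), Krt5, Krt14 and Krt15 together had at most 5, and Myod1, Cdh5 and Sox10 had none. It also needed at least 1000 detected genes, at most 10% mitochondrial UMIs and under 5% hemoglobin UMIs. The rule took 231 of 8480 kept barcodes of the mutant library and 312 of 12028 of the control library, 543 macrophages in all out of 20508 kept barcodes.

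The mutant library came from embryos that combine Axin2CreER, a tamoxifen-inducible recombinase expressed in cells that answer Wnt signals, with a lox-stop-lox SmoM2YFP allele at the Rosa locus. Once recombined, the allele yields a constantly active form of Smoothened, tagged with YFP, that switches Hedgehog signalling on. The control library came from littermates, and its title names the SmoM2YFP allele and no recombinase. Flank skin of 2 to 3 embryos was pooled for each library, taken apart with 0.25% trypsin (37 °C, 20 minutes) and stained with DAPI for sorting. The title and the genotype field of each library contradict each other, and the groups here follow the titles. The dermal gate (cells with at least 10 collagen UMIs and at most 2 C1q UMIs) goes with the titles: Ptch1, a target of Hedgehog signalling, was there at 224 CPM (UMIs of a gene per 1000000 UMIs of the same cells) in the library titled mutant and 5.81 CPM in the one titled control, and eYFP was in 16.1% and 0.305% of cells. The mutant title calls the activation dermal, and the driver is not one of macrophages. The comparison asks how macrophages differ between skin with and without that activation. Each group is 1 library, so no difference below has a replicate check, no test was possible, and every interval is a 95% interval that covers counting error only.

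Macrophages of embryonic skin enter from the yolk sac and fetal liver before the hair follicles form. They engulf dying cells and red cells, break heme down with heme oxygenase, store the iron in ferritin and release it through ferroportin. Ferroportin is the only known cellular iron exporter, and the transferrin receptor brings iron in. When iron is scarce, iron regulatory proteins bind hairpins in the untranslated ends of these messages: at the 5′ end they stop translation, and at the 3′ end of the transferrin receptor message they slow its decay.

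Such hairpins are shown for the iron genes that carry most of the results, because they mark which messages are known to answer to iron after transcription. UMI counts read a change in message decay (Tfrc) and not one in translation (Fth1, Ftl1 and Slc40a1). A search of GENCODE M21 transcripts of 22500 coding genes for the iron-responsive element (an unpaired C, a stem of 5 pairs with G and U allowed to pair, and a loop of 6 bases that begins with CAGTG) found it in 301 genes, or 1.34%. The pattern lay in an untranslated region in 175 of them, or 0.778%. The sequences below are 29 bases of transcript, written as DNA, and the capitals mark the first 5 bases of the loop.
Fth1, 5′ UTR, GRCm38 chr19:9982732-9982760, plus strand: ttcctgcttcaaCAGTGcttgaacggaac
Ftl1, 5′ UTR, GRCm38 chr7:45459779-45459807, minus strand: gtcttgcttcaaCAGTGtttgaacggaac
Slc40a1, 5′ UTR, GRCm38 chr1:45925465-45925493, minus strand: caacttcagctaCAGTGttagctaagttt
Tfrc, 3′ UTR, GRCm38 chr16:32631219-32631247, plus strand: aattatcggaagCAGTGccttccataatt
Tfrc, 3′ UTR, GRCm38 chr16:32631598-32631626, plus strand: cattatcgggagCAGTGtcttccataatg
Tfrc, 3′ UTR, GRCm38 chr16:32631663-32631691, plus strand: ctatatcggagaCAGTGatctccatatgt
Tfrc, 3′ UTR, GRCm38 chr16:32631710-32631738, plus strand: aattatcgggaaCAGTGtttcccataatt
The 2 ferritin hairpins and that of ferroportin each stand once, ahead of the coding sequence, and the transferrin receptor message holds 4 behind it.

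Macrophages had a median of 9950 UMIs and 2949 genes in the mutant library, and of 11910.5 UMIs and 3223 genes in the control library. Their summed counts were 2365595 and 4011715 UMIs, so 1 UMI equals 0.423 CPM in mutant and 0.249 CPM in control macrophages. The libraries list 48 barcodes in common, none of them a macrophage in both. Macrophages made up 2.72% of kept barcodes in the mutant library (interval 2.39% to 3.09%) and 2.59% in the control library (2.32% to 2.89%), and these intervals overlap.

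Between the libraries, 5689 genes reached 20 CPM in macrophages of either one. Of these, 287 were at least 1.5-fold higher in mutant macrophages (5.04%) and 225 at least 1.5-fold lower (3.96%), 9.0% in all, and the median log2 ratio was 0.05. Counts of list members below are read against these shares.

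Few barcodes had 3 or 4 C1q UMIs, and the minimum of 10 lies above these counts, with cells on both sides of it. The bins below differ in width, and they show no dip at 3 or 4 in the mutant library. Of kept mutant barcodes, 8140 had no C1q UMI, 75 had 1 or 2, 9 had 3 or 4 and 17 had 5 to 9, and of control barcodes 11538, 133, 4 and 21 did. The cells just outside the threshold, at 5 to 9 C1q UMIs and meeting the other limits, numbered 17 among mutant and 18 among control barcodes. They carried Csf1r, the receptor for the macrophage growth factor CSF1, at 223 CPM in mutant and 279 CPM in control cells. They also had more of the monocyte gene Ccr2 (300 and 184 CPM) than the members with 15 or more C1q UMIs (53.7 CPM in mutant and 40.8 CPM in control cells). The members just inside, at 10 to 14 UMIs, numbered 18 and 26 and had Ccr2 at 152 and 331 CPM. The threshold thus lies within the Ccr2-positive end of the population.

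The macrophage label fits the genes that the rule did not use. Csf1r was at 276 CPM in mutant and 371 CPM in control macrophages, and in the dermal gate at 0.240 and 0.363 CPM. Mrc1, the mannose receptor, was at 1309 CPM in mutant and 1361 CPM in control macrophages, against 0.685 and 0.484 CPM in the dermal gate. Of 20 macrophage identity genes 18 reached 20 CPM, among them Fcgr1 (256 and 244 CPM), Cx3cr1 (429 and 516 CPM), Adgre1 (147 and 162 CPM) and the transcription factor Maf (1072 and 1290 CPM). Of the 18, Lyz2 was past 1.5-fold, lower in mutant macrophages. Csf1r and Mrc1 were chosen together with the rule as its markers, so these levels describe the cells and test nothing.

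**Figure D1:**
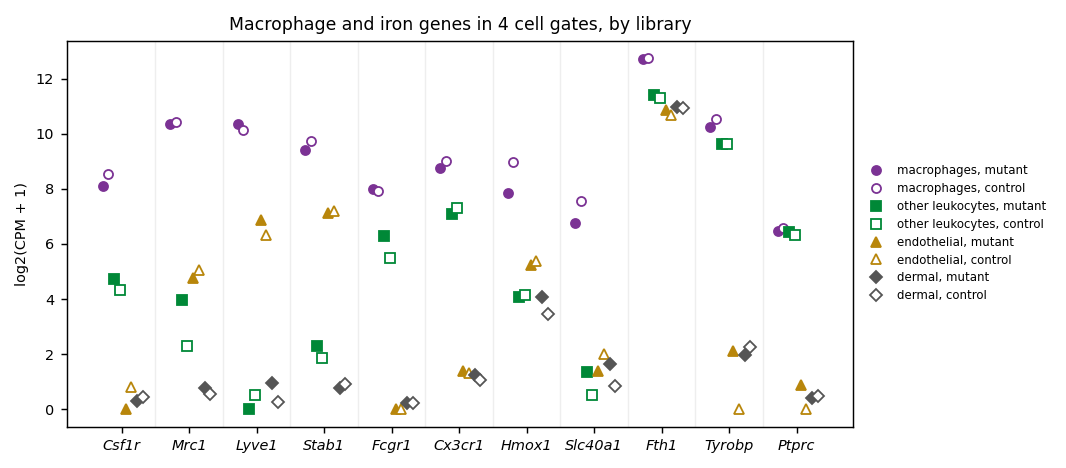
Levels of 11 genes (log2 of CPM with 1 added) in macrophages, other leukocytes, endothelial cells and dermal cells, with filled symbols for the mutant library and open symbols for the control library. Csf1r, Mrc1, Lyve1 and Fcgr1 are highest in macrophages of both libraries, Hmox1 and Slc40a1 stand above the other gates in both, and Ptprc is alike in macrophages and other leukocytes.

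Markers of other blood cells were at or near 0. The mast cell list summed to 2.96 CPM in mutant and 2.99 CPM in control macrophages, and the neutrophil list to 6.34 and 9.72 CPM. Of the dendritic list, Flt3, Xcr1, Clec9a, Ccr7 and Cd209a had no UMI in either library, and Irf8, which macrophages also make, gave nearly all of the sum. Dermal RNA was present. All 7 dermal markers at 20 CPM were lower in mutant macrophages, and the list summed to 386 CPM in mutant and 778 CPM in control macrophages, with 0 to 78 UMIs per mutant cell and 0 to 298 per control cell. More than 2 collagen UMIs were found in 18 mutant macrophages (7.79%) and 40 control macrophages (12.8%). The Scrublet doublet caller marked 17 mutant (7.36%) and 36 control macrophages (11.5%). Red cell RNA moved the other way: the erythroid list summed to 949 CPM in mutant and 203 CPM in control macrophages, and to 992 and 152 CPM in the dermal gate. The part of these sums in the differences below was not tested, and values without the collagen-bearing cells are given where they bear on one.

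The macrophages split into subsets that each held cells of both libraries, some in unequal numbers. Most cells were of the LYVE1 type of resident tissue macrophage. At an equal depth of 4000 UMIs (227 mutant and 309 control cells, 4 and 3 shallower ones left out), 66.1% of mutant macrophages (59.5% to 72.2%) and 68.0% of control macrophages (62.4% to 73.1%) had at least 2 UMIs of Lyve1, Cd163, Folr2 and Timd4 together. Without thinning these shares were 73.6% and 78.8%, and in the dermal gate 0.0272% and 0%. A monocyte-type gate (Ccr2, Ly6c2 and Plac8, at least 2 UMIs) took 7.49% of mutant (4.42% to 11.7%) and 7.77% of control macrophages (5.04% to 11.3%), or 12.6% and 13.1% unthinned, beside a dermal background of 0.979% and 0.506%. Ly6c2 had no UMI in either library, so Ccr2 and Plac8 made this gate. Lyve1, a hyaluronan receptor, and Ccr2, the receptor for CCL2, were nearly exclusive: 152 mutant cells had Lyve1 alone, 27 Ccr2 alone, 4 both and 44 neither, and 220, 34, 2 and 53 control cells did. The shares of either gate differed between libraries by less than their intervals.

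Other subset genes were scarce. At least 2 UMIs of the microglia genes P2ry12, Tmem119, Siglech, Sall1 and Gpr34 were found in 3.96% of mutant macrophages (1.83% to 7.39%) and 9.71% of control macrophages (6.65% to 13.6%). This share depends on depth (16.9% and 36.9% unthinned), it was also lower in mutant than in control cells of the dermal gate (0.544% and 2.01%), and Sall1, which defines microglia, had no UMI. Of the genes themselves, Siglech had 9 UMIs in mutant (3.8 CPM) and 55 in control macrophages (13.7 CPM), and Tmem119 had 4 and 22. Genes of MHC class II were near their floor, with 0.441% of mutant and 1.62% of control macrophages in the gate (2.16% and 3.21% unthinned), and H2-Eb1 had no UMI, which allows up to 1.27 CPM in mutant and 0.748 CPM in control macrophages. Cd207, the marker of Langerhans cells, had no UMI either.

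Most macrophages carried G2M transcripts. At 4000 UMIs, 73.6% of mutant macrophages (67.3% to 79.2%) and 60.2% of control macrophages (54.5% to 65.7%) had at least 3 UMIs of 18 G2M genes, a difference of 13.4 percentage points (5.06 to 21.4). Unthinned, the shares were 86.1% and 78.2%. The dermal gate showed the same order, with 55.1% of mutant and 41.5% of control cells, and other leukocytes were closer, at 65.7% and 62.4%. In summed RNA the 18 G2M genes were level, at 2308 CPM in mutant and 2322 CPM in control macrophages. The ratio of these sums was 0.994 (0.961 to 1.03), the list median was 0.03 on the log2 scale, and none was past 1.5-fold. Of 18 S phase genes Rrm2 (97.2 and 58.3 CPM) and Cdc6 (41.4 and 20.4 CPM) were higher in mutant macrophages, with a list median of 0.30.

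Clustering of all 543 cells gave 6 groups, called here by number and by the genes that lead them. Cluster 0 (69 mutant and 62 control cells) was led by replication histones such as Hist1h1b, at 972 CPM against 111 CPM in the other macrophages. Cluster 3 (33 and 40 cells) was led by genes of mitosis such as Aspm and Cenpe. Cluster 1 (70 and 60 cells) was led by Spp1, which encodes osteopontin, at 150 CPM against 30.9 CPM, and its leading 8 genes included Hmox1, Tfrc, Ccl7 and Ccl12. Cluster 2 (13 and 82 cells) was led by the embryonic globin Hbb-y, at 187 CPM against 32.6 CPM, with Ms4a7, Abca1, Selenop and Igf1 among its leading 8 genes and little Mki67, at 22.5 CPM in its mutant and 34.0 CPM in its control cells. The erythroid list ranged to 200 UMIs in a control macrophage, around a median of 2. Whether single cells made the Hbb-y level was not tested. Cluster 4 (28 and 33 cells) had Ccr2 at 348 CPM against 29.6 CPM, with Plac8, Cd52 and Lgals3, and almost no Lyve1 (0 and 7.98 CPM). Cluster 5 (18 and 35 cells) was led by Col1a2, Ptn and Sparc, and held 16 of the 17 mutant and 35 of the 36 control macrophages that Scrublet marked. Cluster sizes are not compared between libraries, because genes that lead them differ between the libraries too, and leading genes describe the clusters and test nothing.

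**Figure D2:**
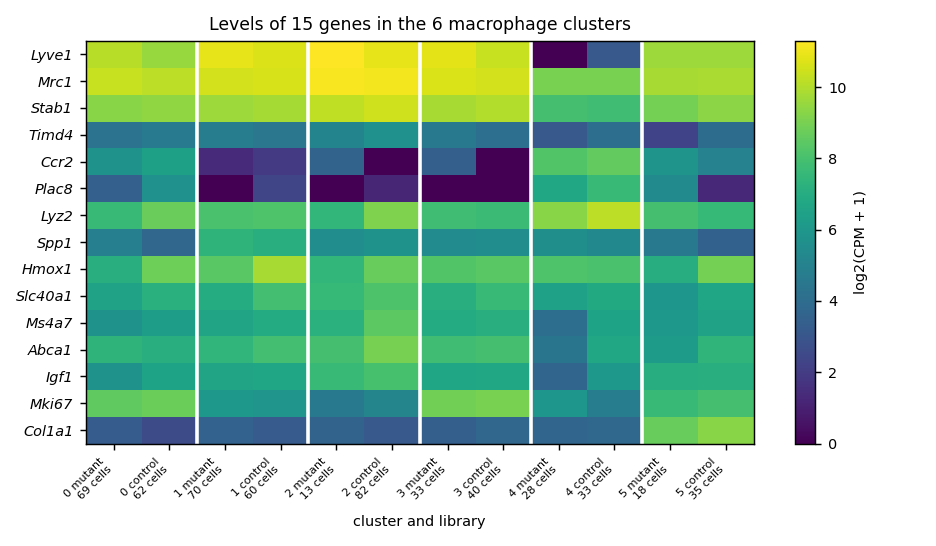
Levels of 15 genes (color, log2 of CPM with 1 added) in the 6 clusters of macrophages, each split into mutant and control cells with the number of cells under the column. Lyve1 is at or near 0 in cluster 4, where Ccr2 and Plac8 are highest, Mki67 is highest in clusters 0 and 3, and Col1a1 stands out in cluster 5.

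Iron and heme genes were mostly level, and Hmox1, at the breakdown step, and Slc40a1, at the export step, had lower sums in mutant macrophages. The Hmox1 difference lay in few cells, as given below. Of 39 members, 24 reached 20 CPM, of which 3 (Hmox1, Slc40a1 and Fbxl5) were lower in mutant macrophages, 1 (Slc39a8) was higher and 20 lay within 1.5-fold. The list median was -0.13 on the log2 scale, against 0.05 for all genes. The 15 others were under 20 CPM in both libraries, and Hamp, which encodes hepcidin, Tfr2 and Lcn2 had no UMI. With so few members, 3 of 24 lower is not set apart from the 3.96% of all genes.

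Hmox1, which encodes the heme oxygenase that opens the heme ring (GRCm38 chromosome 8, 75093621 to 75100589), had 548 UMIs in mutant macrophages (232 CPM) and 2002 in control macrophages (499 CPM), a ratio of 0.464 (0.422 to 0.510). Per cell it ranged to 5980 CPM around a median of 127 CPM in mutant cells, and to 12220 CPM around a median of 140 CPM in control cells. The medians are close and the ranges overlap, so the difference in the sums lies in the highest cells. Slc40a1, which encodes ferroportin (chromosome 1, 45908068 to 45926523), had 252 UMIs in mutant macrophages (107 CPM) and 744 in control macrophages (185 CPM), a ratio of 0.574 (0.496 to 0.663). At 4000 UMIs it was detected in 27.8% of mutant macrophages (22.0% to 34.1%) and 42.4% of control macrophages (36.8% to 48.1%). Its per-cell median was 0 CPM in mutant and 121 CPM in control macrophages and its upper quartile 159 and 307 CPM, while the ranges overlap. In the dermal gate its level was 2.09 CPM in mutant and 0.787 CPM in control cells.

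The ferritin chains lay near a ratio of 1, and most storage and import genes within 1.5-fold. Fth1, the ferritin heavy chain, was at 6756 CPM in mutant and 6841 CPM in control macrophages, a ratio of 0.987. Ftl1, the ferritin light chain, was at 8717 and 9633 CPM, a ratio of 0.905. Tfrc, the transferrin receptor, was at 96.4 and 74.0 CPM, a ratio of 1.30 (1.09 to 1.55). Blvrb, a biliverdin reductase, was at 381 and 494 CPM, a ratio of 0.773 (0.713 to 0.836). Ncoa4, which takes ferritin to lysosomes, was at 91.3 and 110 CPM. Fbxl5, an iron sensor that turns over an iron regulatory protein, was past 1.5-fold on the lower side, with 45 and 119 UMIs (19.0 and 29.7 CPM). Slc39a8, a metal importer, was past it on the higher side, with 56 and 55 UMIs (23.7 and 13.7 CPM). The hemoglobin scavenger receptor Cd163 had 8 and 35 UMIs (3.38 and 8.72 CPM), and Spic, a factor of red pulp macrophages, 6 and 8.

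**Figure D3:**
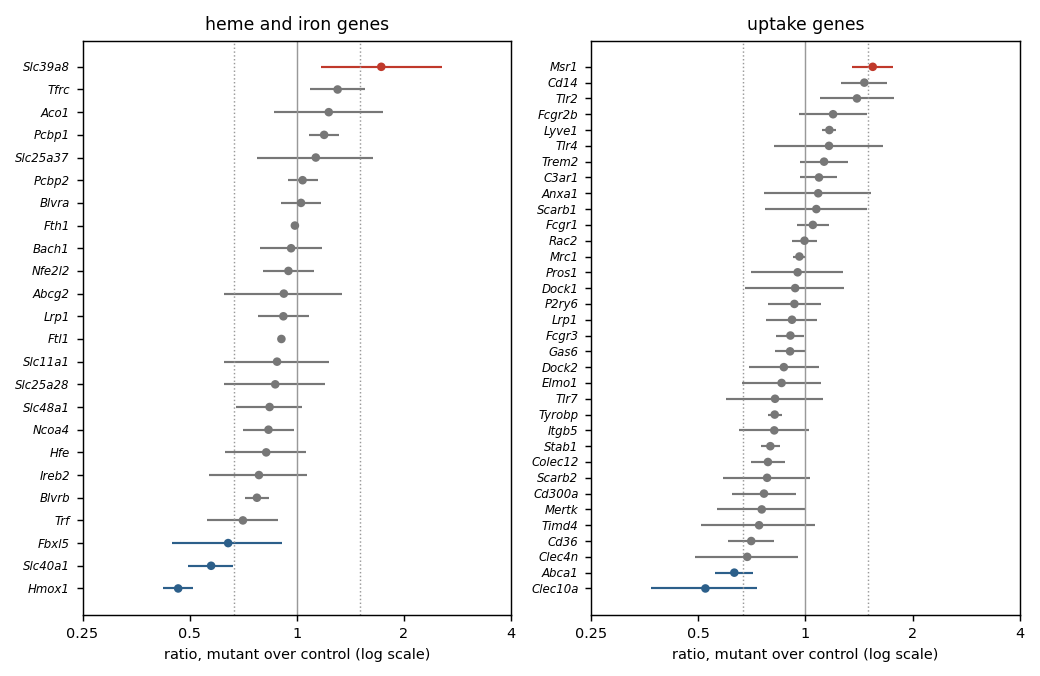
Ratios of mutant over control macrophages (log scale) for the 24 heme and iron genes and the 34 uptake genes that reached 20 CPM, with lines for the counting interval and dotted lines at 1.5-fold either way. Slc39a8 and Msr1 lie past the threshold on the higher side, Fbxl5, Slc40a1, Hmox1, Abca1 and Clec10a on the lower side, and all others between.

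A few cells held much of the heme oxygenase RNA. The cut for them was chosen after the values were seen. At 1000 CPM of Hmox1 or more stood 7 of 231 mutant macrophages (3.03%, 1.23% to 6.14%) and 23 of 312 control macrophages (7.37%, 4.73% to 10.9%). They held 191 of the 548 mutant UMIs (34.9%) and 1408 of the 2002 control UMIs (70.3%). Without them Hmox1 was at 155 CPM in mutant and 160 CPM in control macrophages, a ratio of 0.969 (0.847 to 1.11). Since the cells were left out by Hmox1 itself, part of this closeness follows from the cut. At cuts of 500 and 2000 CPM there were 18 and 4 mutant cells and 40 and 19 control cells above, and the rest stood at 134 and 173 CPM in mutant and 138 and 181 CPM in control macrophages. Slc40a1, on which the cut was not made, was at 95.1 CPM in mutant and 150 CPM in control macrophages without the same cells, a ratio of 0.635 (0.541 to 0.744).

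**Figure D4:**
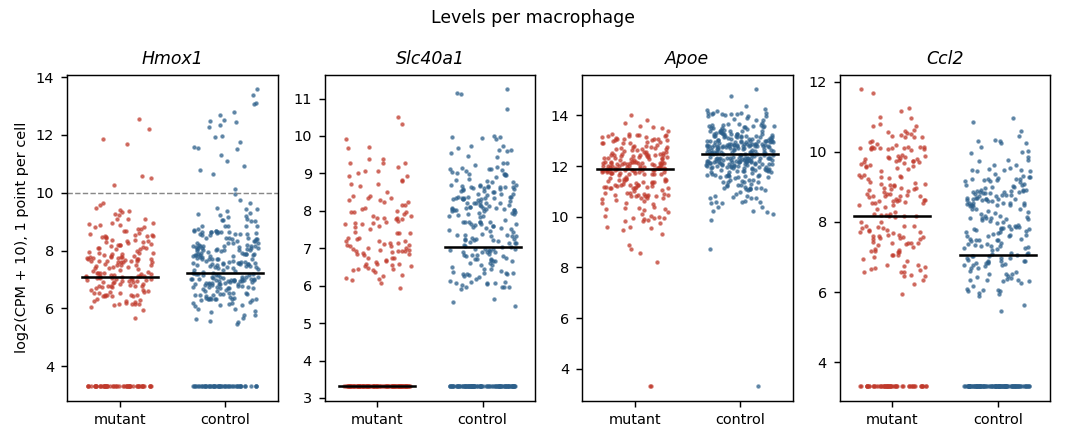
Levels of Hmox1, Slc40a1, Apoe and Ccl2 in each macrophage (log2 of CPM with 10 added), mutant cells left and control cells right, with a black line at the median and, for Hmox1, a dashed line at 1000 CPM. More control than mutant cells lie above the dashed line, while the Hmox1 medians are close, and the medians of Slc40a1 and Apoe are lower and that of Ccl2 higher in mutant cells.

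The high cells of both libraries carried more ferritin and ferroportin RNA than the other macrophages. Slc40a1 was at 516 CPM in the 7 mutant cells and 95.1 CPM in the other mutant cells, and at 624 CPM in the 23 control cells and 150 CPM in the other control cells. It was detected in 6 of the 7 and in all 23. Fth1 was at 16742 CPM against 6478 CPM in mutant cells and at 15389 CPM against 6147 CPM in control cells, and Ftl1 at 12720 against 8606 CPM and at 14650 against 9225 CPM. Slc48a1, a heme transporter of the lysosome, was 2.90-fold and 2.92-fold higher in them. Tfrc was not (0.973-fold and 0.841-fold). NRF2 is the factor that answers oxidative stress, and a list of 10 of its target genes was chosen after the values were seen. Of these, 4 had intervals above 1 with more than 5 UMIs in the high cells of both libraries. The share of all genes that met these limits was not counted, so 4 of 10 is not read as an excess. Gclm, a subunit of the enzyme that starts glutathione synthesis, was at 579 against 39.5 CPM in mutant and 375 against 34.8 CPM in control cells. Sqstm1, an autophagy receptor, was at 250 against 31.7 CPM and 338 against 35.0 CPM, Srxn1, a sulfiredoxin, at 93.9 against 8.69 CPM and 116 against 6.2 CPM, and Txnrd1, a thioredoxin reductase, at 282 against 74.3 CPM and 295 against 47.7 CPM. Not every high cell carried them: Gclm, Sqstm1, Srxn1 and Txnrd1 were detected in 4, 5, 3 and 5 of the 7 mutant cells. In the 23 control cells these counts were 19, 19, 9 and 15. Gclc was at 99.5 against 18.1 CPM in control cells, and with 3 UMIs in mutant high cells its interval held 1. The intervals of Taldo1 and G6pdx held 1 in both libraries, Nqo1 had no UMI in the high cells, and Slc7a11 and Osgin1 had at most 4. Nfe2l2, which encodes NRF2 itself, was at 141 against 97.8 CPM and 119 against 103 CPM, with intervals of the ratio that hold 1. Since the cells were chosen by Hmox1, these are descriptions.

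The high cells did not form a cluster. Of the 7 mutant cells, 2 lay in cluster 1, 2 in cluster 3 and 3 in cluster 4. Of the 23 control cells, 4, 6, 5, 3, 1 and 4 lay in clusters 0 to 5. Lyve1 was found in 3 of the 7 and 20 of the 23, and Ccr2 in 1 and none. Their hemoglobin UMIs had the same median as those of the other macrophages, 10 in mutant and 2 in control cells. The stress gene Atf3 was at 501 against 110 CPM in mutant and 179 against 42.9 CPM in control cells. Hspa1a was at 86.2 against 8.36 CPM in control cells, and its 7 UMIs in the mutant high cells came from 1 cell.

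Promoters of the antioxidant list were searched for the antioxidant core motif because several of its genes were higher in these cells. The motif TGACNNNGC, on either strand, was looked for in the 250 bases before each start in the RefSeq promoter table (GRCm38.p6). It was found in 10.2% of all 32851 promoters. Of 10 listed genes 9 matched the table, with 11 windows, and 3 of these windows held it, in Gclm, Txnrd1 and G6pdx. The promoters of the 2 genes of these 3 that were most raised in the high cells are shown, with the motif in capitals as it reads on the gene's strand, where it is the reverse complement.
Gclm, GRCm38 chr3:122245307-122245556, plus strand: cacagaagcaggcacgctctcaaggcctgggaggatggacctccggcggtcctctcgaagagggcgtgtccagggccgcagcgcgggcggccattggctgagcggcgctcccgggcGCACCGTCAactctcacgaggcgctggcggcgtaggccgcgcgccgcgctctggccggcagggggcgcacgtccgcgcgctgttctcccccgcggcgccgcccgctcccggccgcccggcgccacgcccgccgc
Txnrd1, GRCm38 chr10:82858956-82859205, plus strand: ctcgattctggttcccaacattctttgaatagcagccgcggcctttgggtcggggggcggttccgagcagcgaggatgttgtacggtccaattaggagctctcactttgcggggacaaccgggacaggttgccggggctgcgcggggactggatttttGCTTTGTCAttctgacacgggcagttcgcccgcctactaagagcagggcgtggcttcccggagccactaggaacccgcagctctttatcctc
The motif begins 134 bases before the Gclm start and 92 bases before this Txnrd1 start. The other 2 Txnrd1 windows and the Srxn1 and Sqstm1 windows did not hold these letters. A match is a description of the sequence, and G6pdx, which also has one, was raised little (93.9 against 42.6 CPM in mutant and 56.4 against 44.5 CPM in control cells).

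Ferroportin was lower in the mutant library in every cluster, by point estimate. Its level was 128 CPM in mutant and 243 CPM in control cells of cluster 1, a ratio of 0.529 (0.402 to 0.691), and 89.2 and 145 CPM in cluster 0, a ratio of 0.616 (0.458 to 0.824). In clusters 2, 4 and 5 the interval held 1. Hmox1 was lower in clusters 0, 1, 2 and 5, with ratios of 0.275 to 0.440, and not in cluster 3 (300 and 337 CPM) or cluster 4 (291 and 269 CPM). These ratios include the cells at 1000 CPM of Hmox1 or more. In clusters 0, 1, 2 and 5 such cells numbered 4, 6, 5 and 4 among control and 0, 2, 0 and 0 among mutant macrophages. Their part in the cluster ratios was not tested. Among cells with at most 2 collagen UMIs, Hmox1 was at 247 CPM in mutant and 513 CPM in control macrophages, and Slc40a1 at 110 and 205 CPM, so both differences were as large without the collagen-bearing cells. In the monocyte-type gate, few UMIs went the other way for Hmox1: 24 in mutant (140 CPM) and 17 in control cells (52.6 CPM), a ratio of 2.67 (1.38 to 5.30).

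Within each library, the macrophages of highest hemoglobin share had more Hmox1 in sum, much of it from the high cells. The ranges of share were cut within each library and are not alike between them. The lowest mutant range ran from 0.0180% to 0.0778%, and the highest control range from 0.0194% to 2.34%. With macrophages cut into 3 equal ranges of hemoglobin share, Hmox1 was at 158, 180 and 368 CPM, low to high, in 77 mutant cells each, and at 435, 461 and 611 CPM in 104 control cells each. Of the cells at 1000 CPM or more, 1, 1 and 5 mutant and 5, 9 and 9 control cells lay in these ranges. Without them Hmox1 was at 136, 159 and 172 CPM in mutant and at 156, 138 and 190 CPM in control macrophages. The intervals of the mutant ranges overlapped. Those of the middle (119 to 160 CPM) and highest control range (165 to 217 CPM) did not. Over all cells of the ranges Lyve1 was at 989, 1364 and 1624 CPM in mutant and at 1127, 988 and 1287 CPM in control macrophages. Slc40a1 was at 77.8, 73.9 and 173 CPM in all mutant and at 161, 179 and 219 CPM in all control macrophages, and at 76.8, 75.1 and 138 CPM and 136, 138 and 179 CPM without the high cells. The erythroid sum itself was no higher in mutant macrophages (949 CPM) than in the other mutant barcodes (940 CPM), and in control macrophages it was 203 CPM against 150 CPM in the other control barcodes. The highest control macrophage alone held 200 of the 814 control UMIs of this list, around a median of 2 per cell. The control sum is thus not read as an excess over the other barcodes.

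Uptake receptors were level as a group. Of 56 measured genes for scavenging and for the clearance of dying cells, 34 reached 20 CPM, of which 1 was higher, 2 were lower and 31 lay within 1.5-fold, with a median of -0.13 on the log2 scale. The leading scavenger receptors stood at 1309 CPM in mutant and 1361 CPM in control macrophages for Mrc1, at 1317 and 1128 CPM for Lyve1, and at 679 and 853 CPM for Stab1. Msr1, a scavenger receptor for modified lipoproteins, was the higher one, at 178 and 115 CPM, a ratio of 1.55 (1.35 to 1.77). Cd36, another lipid receptor, was at 111 and 157 CPM, a ratio of 0.704 (0.607 to 0.815). Clec10a, a lectin, was lower, with 46 and 149 UMIs (19.4 and 37.1 CPM).

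Receptors and bridges for dying cells were present, and of 19 such genes at 20 CPM 18 lay within 1.5-fold. Their list summed to 3448 CPM in mutant and 3904 CPM in control macrophages, a ratio of 0.883 (0.860 to 0.907). Mertk, a receptor tyrosine kinase for apoptotic cells, was at 30.4 CPM in mutant and 40.4 CPM in control macrophages, its ligand Gas6 at 277 and 306 CPM, and Timd4, a phosphatidylserine receptor, at 19.0 and 25.7 CPM. Axl had 10 and 23 UMIs. Trem2, a lipid-sensing receptor, was at 121 and 107 CPM, and Abca1, a cholesterol exporter that works after engulfment, at 153 and 242 CPM, a ratio of 0.631 (0.558 to 0.713). Abca1 is the second gene past the threshold here, and it is among the leading genes of cluster 2, which holds few mutant cells. It was also lower within cluster 2, with a ratio of 0.490 (0.304 to 0.753). Its ratios in clusters 1, 4 and 5 were 0.724, 0.192 and 0.426, with intervals below 1. In clusters 0 and 3 they were 1.17 and 0.922, with intervals that hold 1. In the cells below the cycling gate the Abca1 log2 ratio was -1.40.

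The digestive genes followed the same pattern. Of 30 lysosomal genes, 26 reached 20 CPM and 1 was past 1.5-fold, with a median of -0.15. Cathepsin B (Ctsb) was at 1956 CPM in mutant and 1919 CPM in control macrophages, Lgmn, an endopeptidase, at 800 and 713 CPM, and Lamp1, a membrane protein of the lysosome, at 641 and 688 CPM. The exception was Lyz2, the lysozyme of myeloid cells, at 272 and 424 CPM, a ratio of 0.641 (0.585 to 0.703). It was lower in mutant cells of clusters 0, 2 and 4 (ratios of 0.330 to 0.541) and not in clusters 1, 3 and 5.

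Of 10 chemokines at 20 CPM, 5 were higher in mutant macrophages and 1 lower, with a median of 0.54. Their sum was not higher, at 3769 CPM in mutant and 3857 CPM in control macrophages, a ratio of 0.977 (0.952 to 1.003), and Pf4, platelet factor 4, made up most of it at 2122 and 2571 CPM. Ccl2, which draws CCR2-bearing monocytes, was at 451 CPM in mutant (1068 UMIs) and 236 CPM in control macrophages (947 UMIs), a ratio of 1.91 (1.75 to 2.09). Its neighbours on chromosome 11, Ccl7 (138 and 64.6 CPM) and Ccl12 (165 and 98.5 CPM), were higher too, as were Ccl4 (189 and 79.0 CPM) and Cxcl2 (107 and 70.8 CPM), the last an attractant of neutrophils. Ccl3, next to Ccl4, was at 170 and 121 CPM, a ratio of 1.41. Ccl24, an attractant of eosinophils, was lower, at 274 and 452 CPM. Ccl2 was higher in each of the 6 clusters, with ratios of 1.52 to 3.0 and every interval above 1.

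In other leukocytes 5 of the 6 chemokines that reached 20 CPM there were higher in the mutant library, beside 2.87% of all genes at 20 CPM in that gate (2.04% were lower), with a median of 1.01, and no member reached 20 CPM in the dermal gate. In the gate of other leukocytes Ccl2 was at 37.5 CPM in mutant and 12.5 CPM in control cells, Ccl3 at 54.2 and 16.8 CPM and Ccl4 at 37.5 and 15.96 CPM. In dermal cells Ccl2 was at 16.6 and 14.2 CPM. Genes of the dissociation response moved with it in part: of 15 at 20 CPM, with a median of 0.20 in macrophages and 0.40 in the dermal gate, Atf3 (121 and 53.1 CPM), Hspa1a (27.9 and 14.2 CPM) and Hsp90aa1 (1157 and 693 CPM) were higher in mutant macrophages (Hspa1a turned round, to a ratio of 0.423, in cells below the cycling gate), and the early genes Fos (673 and 653 CPM) and Egr1 (161 and 173 CPM) were not. The list summed to 3726 CPM in mutant and 3000 CPM in control macrophages, with 6 to 112 UMIs per mutant cell and 2 to 129 per control cell, and its part in the chemokine values was not tested. Of 7 inflammatory genes at 20 CPM, Tnf (62 and 37 UMIs, 26.2 and 9.22 CPM) and Sod2 (143 and 88.2 CPM) were higher. Of 5 interferon genes, Ifi27l2a was lower, at 61.7 and 143 CPM.

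Of 13 glycolysis and hypoxia genes at 20 CPM, 7 were past 1.5-fold in mutant macrophages and none below, with a median of 0.59. The glucose transporter Slc2a1 was at 25.8 CPM in mutant and 11.0 CPM in control macrophages, Pfkl, a phosphofructokinase, at 88.3 and 42.4 CPM, and Ldha, a lactate dehydrogenase, at 1168 and 724 CPM, a ratio of 1.61 (1.53 to 1.70). Slc16a3, a lactate exporter outside this list and among the 12 highest genes, was at 56.6 and 15.5 CPM, a ratio of 3.67 (2.69 to 5.04). In the dermal gate 1 of 12 of these genes was higher and 1 lower (beside 4.07% and 3.64% of all genes there), with a median of 0.40. In other leukocytes 4 of 12 were higher, with a median of 0.46, and in endothelial cells 0 of 10 were past 1.5-fold (beside 4.93% of all genes higher and 4.86% lower there), with a median of 0.22. The difference between the gates was not tested.

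Lipid genes were lower at the apolipoproteins. Apoe, which carries lipid out of the cell, was at 3811 CPM in mutant and 5948 CPM in control macrophages, a ratio of 0.641 (0.625 to 0.657), and Apoc1 at 44.0 and 84.0 CPM. Per cell, Apoe had a median of 3773 CPM in mutant and 5767 CPM in control cells, and the interquartile ranges, 2240 to 5518 CPM and 3915 to 8359 CPM, overlap. It was at 119 and 112 CPM in the dermal gate. Fabp5, a fatty acid binding protein, was higher, at 407 and 245 CPM, and so it was in the dermal gate (899 and 528 CPM). Among growth factors Igf1 was lower in mutant macrophages, at 80.3 and 131 CPM, and higher in mutant cells of the dermal gate, at 269 and 150 CPM. Igf1 is among the leading genes of cluster 2, and within clusters 1, 2, 3 and 5 its ratios were 0.794 to 0.949 with intervals that hold 1, while in clusters 0 and 4 they were 0.576 and 0.187 with intervals below 1.

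**Figure D5:**
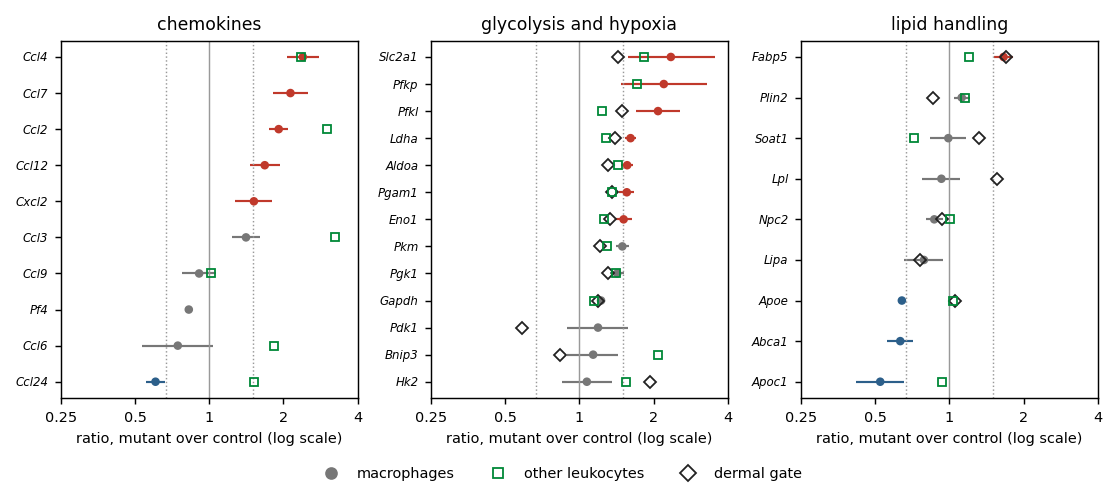
Ratios of mutant over control (log scale) for chemokine, glycolysis and lipid genes at 20 CPM in macrophages, with counting intervals, beside the ratios in other leukocytes (squares) and the dermal gate (diamonds) where a gene reached 20 CPM there. The 5 chemokines and 7 glycolysis genes past 1.5-fold lie to the right, Apoe, Abca1 and Apoc1 to the left, and the dermal gate shows Apoe near 1.

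Of 18 receptor and recruitment genes at 20 CPM, Ifngr1, a receptor chain for interferon gamma (70.6 CPM in mutant and 109 CPM in control macrophages), and Tgfbr1, a receptor for TGF-beta (16.5 and 26.7 CPM), were lower. None of 8 genes of the LYVE1 type was past 1.5-fold, nor any of 5 complement genes beyond C1q, of 6 genes of antigen presentation or of 2 Wnt response genes. Of 6 monocyte-type genes 3 were lower, with a list median of -0.43, Plac8 (19.0 and 32.4 CPM, but a ratio of 1.05 with a minimum of 5 C1q UMIs), S100a4 (17.8 and 31.7 CPM) and Vcan (5.07 and 26.2 CPM), the last of which dermal cells carry at 113 and 181 CPM. Of 6 genes of the microglia and Langerhans precursor type, Gpr34 was lower (35.5 and 58.6 CPM).

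At the ends of the ranking, genes that other cells share come first. The 12 highest were AA465934, Hbb-bs, Hbb-bt, Hba-a1, Cwc22, Hba-a2, Slc16a3, Acta2, Phgdh, Ccl4, Tnf and Atf3. Of these AA465934 (44.8 and 1.74 CPM), Cwc22, a splicing factor (71.0 and 17.7 CPM), and the hemoglobins were as far apart in the dermal gate, at 75.7 and 1.68 CPM for AA465934 and 89.8 and 20.0 CPM for Cwc22. Phgdh, which starts serine synthesis, was at 168 and 67.8 CPM in macrophages and 166 and 94.7 CPM in the dermal gate. The 12 lowest were Nrgn, Mfap4, Plpp3, Igfbp5, Crabp1, Vcan, Ypel3, Ncam1, Peg3, Mfap2, Col1a2 and Rtp4. Most are dermal genes, and 5 of them (Plpp3, Igfbp5, Ncam1, Mfap2 and Col1a2) turned round without the doublets that Scrublet marked. The exceptions were Ypel3 (11.8 and 46.1 CPM) and Rtp4, an interferon-induced gene (8.45 and 28.2 CPM, 20 and 113 UMIs), of which Ypel3 was also lower in mutant cells of the dermal gate (15.5 and 34.9 CPM). Both kept their direction under each alternative run.

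Signs of Hedgehog activity in the macrophages were few. The eYFP reporter was found in 15 mutant macrophages (6.49%, 3.68% to 10.5%) and 12 control macrophages (3.85%, 2.0% to 6.62%), against 16.1% of mutant and 0.305% of control cells of the dermal gate and 1.92% of mutant and 5.33% of control cells of the other leukocytes. The sum of a list of 12 Hedgehog response genes was level, with a ratio of 0.951 (0.80 to 1.13). Of its 2 members at 20 CPM none was higher in mutant macrophages and 1 was lower, with a median of -0.52 on the log2 scale. The lower one, Gas1, turned round without doublets. Ptch1, the Hedgehog receptor and a target of the pathway, is a list member under 20 CPM, at 18.2 CPM in mutant and 5.98 CPM in control macrophages. In cells with at most 2 collagen UMIs it had 23 UMIs in mutant (11.0 CPM) and 22 in control macrophages (6.77 CPM), a ratio of 1.62 (0.862 to 3.04), and in the others 20 and 2. Most of the Ptch1 difference thus lay in the cells that also carried dermal RNA.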

How the data were processed

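The deposited tables are UMI counts per gene and barcode, made by the authors with Cell Ranger 5.0.1 on mm10, per the submitters' processing notes and the file headers. Barcodes kept had at least 1000 genes, at most 10% mitochondrial and under 5% hemoglobin UMIs. Macrophage UMIs were summed per library and scaled to CPM, UMIs per 1000000. With 1 library per group no test was made. Ratios carry exact binomial intervals conditional on the total and shares Clopper-Pearson intervals, at 95%, for counting error only, which leaves out the spread between embryos. Genes at 20 CPM in either library were called at 1.5-fold. Shares were compared after thinning each cell to 4000 UMIs. Cells were clustered with scanpy 1.11.5 and leidenalg 0.10.2 (1000 variable genes, 15 components, 15 neighbours, resolution 0.5). Scrublet marked doublets, which stayed in. Other software was Python 3.11.15, numpy 2.4.6, scipy 1.17.1, pandas 2.3.3, igraph 0.11.9 and matplotlib 3.10.9. The ratios, their intervals and a list median were tested on simulated counts that had no spread between cells. Clustering, doublet calls, gates, the high-cell comparison and the sequence searches were not tested in this way.

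The named genes are the 12 highest and 12 lowest with 5 CPM added, list members past 1.5-fold, the 6 most abundant members of each list, any iron, uptake or lysosome gene, and the 8 leading genes of each cluster. Other genes named were chosen after their values were seen. The macrophage rule and the gene lists were chosen with earlier results of these data known. Hairpins were searched in GENCODE M21 transcripts and promoters in RefSeq GRCm38.p6. Alternatives covered the C1q, keratin, mitochondrial and CPM limits, doublets, scaling, added CPM, thinning, gate minimums and cycling cells.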

Additional observations from a re-analysis of the deposited data

Results flagged for a closer look

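Of 66 genes compared, 4 differed one way in macrophages and the other way in the dermal gate, and the difference between the gates was not tested. Most of the 66 were taken because they were past 1.5-fold in macrophages, and the share among all genes was not counted. No minimum CPM was set in the dermal gate, where Slc40a1, Hmox1 and Plac8 were under 20 CPM. The ratio of mutant over control was 0.574 for Slc40a1 in macrophages and 2.65 (1.80 to 3.92) in the dermal gate, where the gene was at 2.09 and 0.787 CPM. For Hmox1 the ratio was 0.464 in macrophages and 1.59 (1.41 to 1.80) in the dermal gate, at 15.8 CPM in mutant and 9.91 CPM in control cells. Without the cells at 1000 CPM of Hmox1 or more, its ratio in macrophages was 0.969 (0.847 to 1.11), an interval that holds 1. Plac8 had a ratio of 0.587 in macrophages and 1.60 (1.39 to 1.85) in the dermal gate. With a minimum of 5 C1q UMIs the Plac8 ratio in macrophages was 1.05, so the opposite direction was not kept there. Igf1 had a ratio of 0.613 in macrophages and 1.79 (1.74 to 1.85) in the dermal gate, the only one of the 4 with over 100 CPM there. Within 4 of the 6 macrophage clusters the interval of its ratio held 1.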

How the results depend on the processing

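With 1 library per group, animal, library and genotype cannot be told apart. Of 115 values of lists, shares and counts under 19 alternative settings, 108 stayed near the reported one, 7 moved and 0 reversed. Only a value whose reported interval left out 0 could be called reversed, and the count of genes could not. The 0 is thus partly set by this definition. Those limited to cells with at most 2 collagen UMIs or without cells at 1000 CPM of Hmox1 were chosen after seeing the data. The cause of the shifts below was not tested. The difference in the microglia-type share, -5.74 points, was -19.98 points without thinning and -0.85 points with a minimum 1 UMI higher. The count of 512 genes past 1.5-fold was 971 at 10 CPM, 212 at 50 CPM, 3698 with 1 UMI in both libraries, 1070 after thinning and 1519 below the cycling gate. Of the calls, 287 were higher and 225 lower, against 359 and 182 without doublets, 365 and 191 with at most 2 collagen UMIs, and 143 and 69 at 50 CPM. With 1 UMI in both libraries 1623 were higher and 2075 lower, and at 10 CPM 451 and 520.

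Of 46 single genes, 40 were past 1.5-fold with an interval off 1, and 25 of them stayed past it under every alternative run. The log2 ratio turned round without doublets for Plpp3 (0.42), Igfbp5 (1.4), Ncam1 (0.22), Mfap2 (0.10) and Col1a2 (0.71). With at most 2 collagen UMIs it turned round for Acta2 (-0.75) and Ncam1 (0.22), and below the cycling gate for Acta2 (-1.46) and Lyve1 (-0.22). Among list members past 1.5-fold beside these, Hspa1a turned round below the cycling gate (-1.24), Gas1 without doublets (0.93) and Plac8 with at least 5 C1q UMIs (0.07). Without the cells at 1000 CPM of Hmox1 the Hmox1 log2 ratio was -0.05. No paired analysis was possible because each group had 1 library and no result comes from a test.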
